A study of Mus musculus with 6 samples.

Results

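The genes described here encode peroxisomal enzymes, transporters and biogenesis factors. They were chosen by name, with earlier results of these data known, as 40 genes out of the 49671 in the count table. They form 4 classes: 9 enzymes of beta-oxidation, 6 transporters and membrane proteins, 12 other peroxisomal enzymes and 13 Pex biogenesis genes. Liver RNA was compared by RNA-seq between mice homozygous for a deletion of the p75 neurotrophin receptor gene Ngfr (KO, n = 3 libraries) and wild-type mice (WT, n = 3 libraries). All mice were 6 months old and on a standard diet, and both genotypes came from laboratory breeding of the Jackson line B6.1129S4-Ngfr/J. The deletion is carried by every cell, so it is not particular to hepatocytes, and the libraries are of bulk liver tissue. The labels do not say whether each library came from its own mouse, and p-values measure only the spread between these libraries.

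The peroxisome is a small organelle that shortens very long and branched fatty acids, dicarboxylic acids and bile acid precursors by beta-oxidation, and that breaks down the hydrogen peroxide this makes. Its matrix enzymes are made in the cytosol and are brought in by the Pex proteins, the receptors, docking factors and membrane proteins that also build and divide the organelle. In rodent liver the beta-oxidation enzymes and Pex11a are known targets of the fatty acid receptor PPAR-alpha, whereas most other Pex genes are thought of as expressed at a steady level.

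The libraries held 29784429 to 32664149 counts in KO and 27107209 to 31412855 in WT. Ngfr itself had 53, 27 and 47 counts in KO replicates 1, 2 and 4, against 133, 144 and 78 in WT replicates 1, 2 and 3, so some reads were still assigned to it in KO. KO replicate 4 stood apart from the other 5 libraries: it had 4712 counts of 4 Y-linked genes, against 0 to 2 in each of the others, and 16 counts of Xist, against 6599 to 9554. The male-biased liver genes, 10 in all, summed to 8235 CPM (counts-per-million, scaled by library size) in this library, against 81.8 and 129 CPM in KO replicates 1 and 2 and 196 to 276 CPM in WT. The female-biased liver genes summed to 1690, 1518 and 8.61 CPM in KO replicates 1, 2 and 4, against 2098 to 3120 CPM in WT. Both lists were thus lower than WT in KO replicates 1 and 2 as well. Sex is not given in the labels, and in KO it cannot be told apart from the individual library, so values without KO replicate 4 are given beside most results below. Of the marker lists for liver cells, hepatocyte genes (9 genes) summed to 111085 to 129589 CPM in KO and 115930 to 132846 CPM in WT. Periportal hepatocyte genes summed to 8786 to 13166 CPM in KO and 6550 to 8269 CPM in WT. With all libraries, 10 of 10 were higher in KO, and 0 of 10 were at 0 in every library. At an unadjusted edgeR p under 0.05, 7 of the 10 were higher, against 3.7% of all genes. The KO range lay above WT in 6 of the 10, against 6.02% of all genes. Without KO replicate 4, 9 of 10 were higher, 8 of them at an unadjusted edgeR p under 0.05, against 5.64% of genes. The 1 lower gene also had an unadjusted edgeR p under 0.05. Pericentral hepatocyte genes summed to 13773 to 16803.5 CPM in KO and 14425 to 15183 CPM in WT, with 5 lower and 5 higher in KO. Stellate cell genes summed to 483 to 515 CPM in KO and 344 to 466 CPM in WT. Of these 10 genes, 8 were higher in KO with all libraries and 10 without KO replicate 4. Ranges lay apart in 0 of the 10, against 6.02% of all genes with KO above and 6.36% with KO below. Neutrophil genes summed to 6.61 to 20.5 CPM in KO and 3.79 to 6.45 CPM in WT. Of these 10, 3 passed the filter on low counts and 5 had counts in every library. The summed ranges of Kupffer cell, T and B cell, endothelial, cholangiocyte, red blood cell and adipocyte genes overlapped between KO and WT. The part of these lists in the results below was not tested.

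The estimates furthest below WT in KO liver were those of Ehhadh and Acaa1b, the fatty acid carriers Abcd2 and Abcd3, and Pex11a. Next came Lonp2 and Hacl1 of the other peroxisomal enzymes, ahead of the remaining beta-oxidation enzymes. The estimates of the Pex genes other than Pex11a were within 0.24 of 0 on the log2 scale. Of the 40 genes, 39 passed the filter on low counts. Dao, D-amino acid oxidase, had 0 counts in all 6 libraries, where a floor of 3 counts is 0.0918 to 0.111 CPM. Of the 39, 27 had a lower and 12 a higher estimate in KO, with a median log2 fold change of -0.13, against -0.00 over all 13773 genes tested. With edgeR's quasi-likelihood test and Benjamini-Hochberg adjustment over all genes, 0 of 39 passed an adjusted p of 0.05, as did 0% of all genes. At an unadjusted p under 0.05, 10 of the 39 were lower, against 3.48% of all genes, and 0 were higher, against 3.7% of all genes. The KO and WT ranges did not overlap, with KO below, in 11 of 39, against 6.36% of all genes, and with KO above in 1, against 6.02%. DESeq2 on the same 6 libraries called 3 of the 39 lower (Ehhadh, Acaa1b and Lonp2), against 0.536% of the genes it tested, and 0 higher. Without KO replicate 4, edgeR called 3 lower (Ehhadh, Acaa1b and Abcd3), against 0.454% of genes, and DESeq2 called 7 lower, against 1.71%. Without that library, 11 of the 39 were lower at an unadjusted edgeR p under 0.05, against 6.5% of genes, and 3 were higher (Pxmp2, Pecr and Agxt), against 5.64%. The ranges of the 2 other KO libraries and WT then lay apart with KO below in 15 of the 39, against 15.6% of all genes, and with KO above in 6, against 14.5%. Because the genes were chosen with earlier results of these data known, these counts beside the shares of all genes are descriptions only. In bulk tissue, fewer cells of a type and less RNA per cell cannot be told apart.

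**Figure D1:**
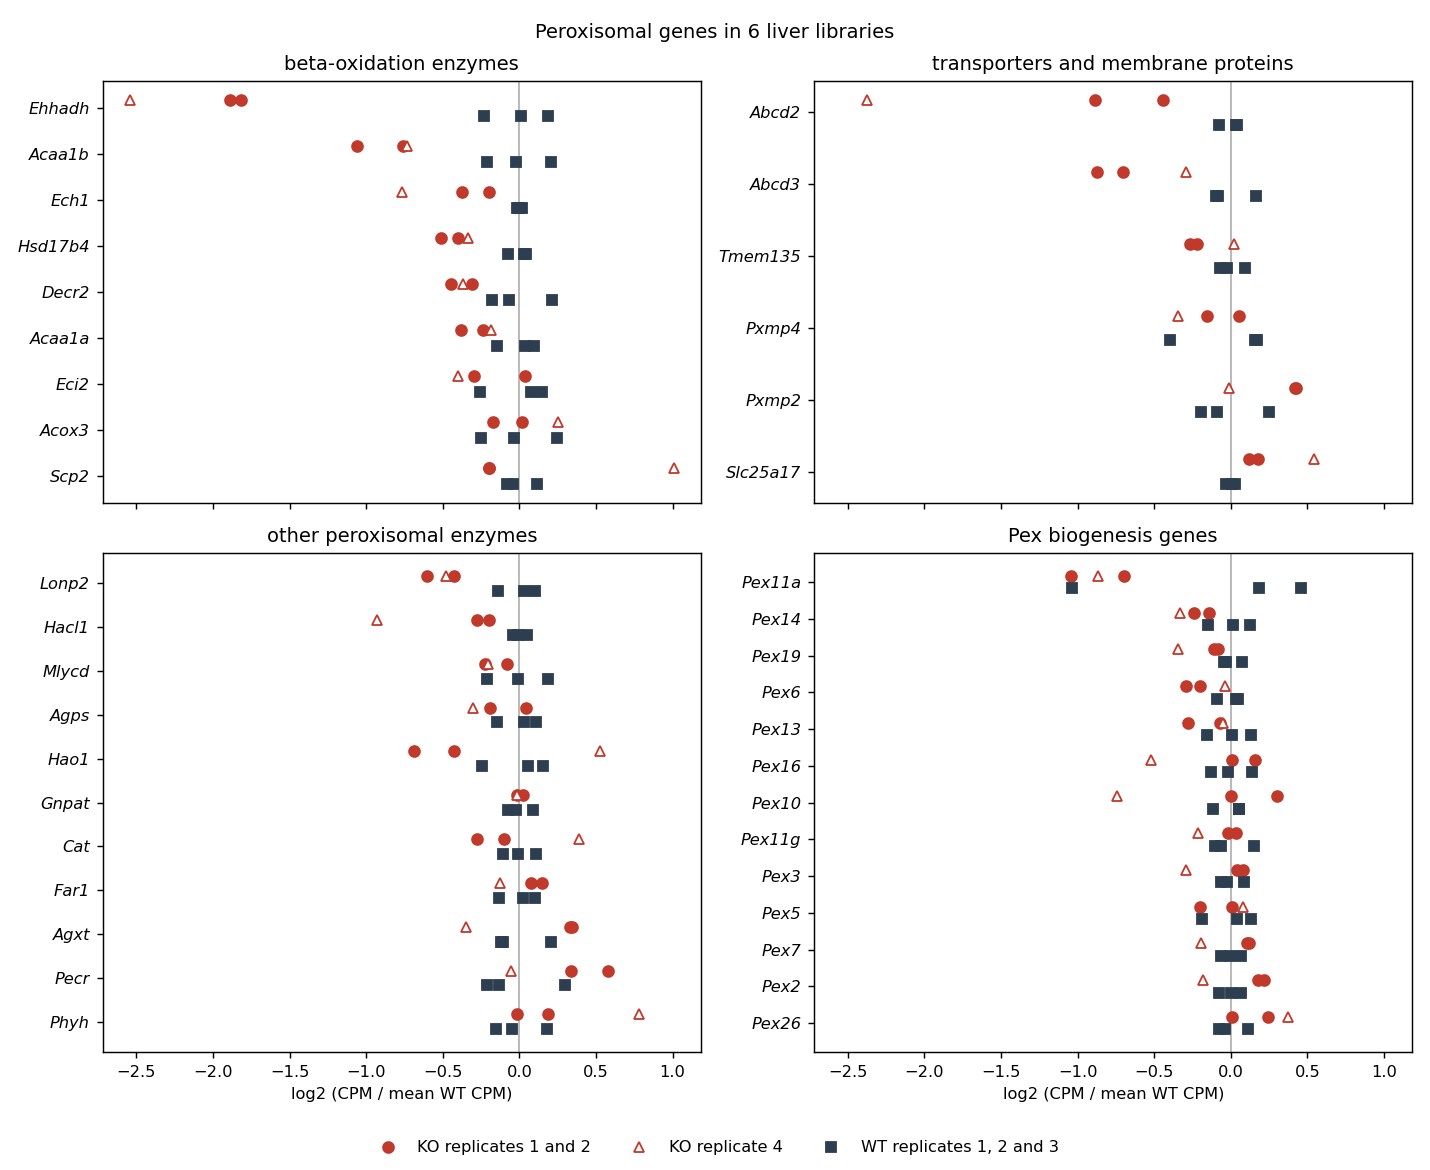
Each point is the level of a gene in 1 library as log2 of its CPM over the mean WT CPM (horizontal axis), for the 39 genes tested, by class. KO replicates 1 and 2 are filled circles, KO replicate 4 is an open triangle and the 3 WT libraries are squares. Among the 9 beta-oxidation enzymes, all 3 KO libraries lie below all 3 WT libraries for 6 genes, and among the 13 Pex genes for 1.

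Beta-oxidation in the peroxisome starts with acyl-CoA oxidases, goes on with the bifunctional enzymes that hydrate and dehydrogenate the chain, and ends with a thiolase that splits off acetyl-CoA. Of these 9 enzymes, 7 had a lower estimate in KO, with a median log2 fold change of -0.37, and 5 had an unadjusted p under 0.05. Ehhadh, the L-specific bifunctional enzyme (chromosome 16, 21761287 to 21787807, minus strand, GRCm38), had the largest estimate of all 39. It had 377, 396 and 240 CPM in KO replicates 1, 2 and 4, against 1591, 1408 and 1189 CPM in WT replicates 1, 2 and 3. The highest KO library was well below the lowest WT library. The log2 fold change was -2.05 (SE 0.21), a ratio of means of 0.242, with an adjusted p of 0.0724 in edgeR and 2.83e-21 in DESeq2. Ehhadh was lowest in KO replicate 4, and without that library the log2 fold change was -1.85 (SE 0.15, edgeR adjusted p = 0.0030).

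Hsd17b4, the D-specific bifunctional enzyme that carries out the same steps with the opposite stereochemistry, had a smaller estimate. Its level was 458, 424 and 479 CPM in KO and 618, 573 and 622 CPM in WT, so the groups did not overlap. A log2 fold change of -0.41 (SE 0.11, edgeR adjusted p = 0.363) was found with all libraries. It was -0.45 (SE 0.11) without KO replicate 4, with an adjusted p of 0.116 in edgeR and 0.00858 in DESeq2. The CPM of Ehhadh divided by that of Hsd17b4 was 0.824, 0.934 and 0.500 in KO, against 2.57, 2.46 and 1.91 in WT. The D-specific enzyme thus had more counts than the L-specific one in every KO library and fewer in every WT library. Per length (RPKM, the CPM per kilobase of exon), the means were 113 for Ehhadh and 133 for Hsd17b4 in KO, against 468 for Ehhadh and 177 for Hsd17b4 in WT.

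The thiolases Acaa1a and Acaa1b are near-identical enzymes of the last step, encoded by genes close to each other on mouse chromosome 9 (119339676 to 119350299, plus strand, and 119148023 to 119157093, minus strand). Acaa1b had 668, 823 and 837 CPM in KO and 1606, 1199 and 1367 CPM in WT. The groups did not overlap. Its log2 fold change was -0.84 (SE 0.15), with an adjusted p of 0.161 in edgeR and 8.68e-05 in DESeq2, and without KO replicate 4 it was -0.89 (SE 0.16, edgeR adjusted p = 0.0479). Acaa1a had 208, 188 and 216 CPM in KO and 252, 222 and 262 CPM in WT, also without overlap, with a log2 fold change of -0.27 (SE 0.12, edgeR unadjusted p = 0.0528), or -0.30 (SE 0.12, unadjusted p = 0.0301) without KO replicate 4. The CPM of Acaa1b divided by that of Acaa1a was 3.21, 4.38 and 3.88 in KO and 6.37, 5.40 and 5.22 in WT. Of the 75-base stretches of exon sequence in Acaa1b, 24.4% also occur in Acaa1a, and of those in Acaa1a, 9.50% occur in Acaa1b. No source used here states how the counting placed reads from these stretches, and the separate values of both genes are uncertain to that extent.

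The sequences before the start sites of these genes are shown because Ehhadh and Acaa1b had the largest estimates among the enzymes and Acaa1a is the near-copy with a smaller one. Each window runs from 250 bases before to 50 bases after the start in RefSeq's table (GRCm38.p6), 5′ to 3′ on the gene's strand. Capitals mark CCAAT boxes (CCAAT) and GC boxes (GGGCGG), read on either strand. The windows are chr16:21787785-21788084 (minus strand) for Ehhadh, chr9:119157044-119157343 (minus strand) for Acaa1b and chr9:119341044-119341343 (plus strand) for Acaa1a.
Ehhadh: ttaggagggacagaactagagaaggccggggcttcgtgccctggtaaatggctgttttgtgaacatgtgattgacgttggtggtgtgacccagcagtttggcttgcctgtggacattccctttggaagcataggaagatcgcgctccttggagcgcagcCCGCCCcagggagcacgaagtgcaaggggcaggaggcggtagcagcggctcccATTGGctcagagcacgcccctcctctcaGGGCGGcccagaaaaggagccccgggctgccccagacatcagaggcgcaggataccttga
Acaa1b: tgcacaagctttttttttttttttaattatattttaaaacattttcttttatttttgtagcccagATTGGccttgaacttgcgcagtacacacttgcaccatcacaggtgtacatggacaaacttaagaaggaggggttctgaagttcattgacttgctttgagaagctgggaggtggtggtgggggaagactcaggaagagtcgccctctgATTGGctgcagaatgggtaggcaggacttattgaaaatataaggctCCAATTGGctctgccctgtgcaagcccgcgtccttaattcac
Acaa1a: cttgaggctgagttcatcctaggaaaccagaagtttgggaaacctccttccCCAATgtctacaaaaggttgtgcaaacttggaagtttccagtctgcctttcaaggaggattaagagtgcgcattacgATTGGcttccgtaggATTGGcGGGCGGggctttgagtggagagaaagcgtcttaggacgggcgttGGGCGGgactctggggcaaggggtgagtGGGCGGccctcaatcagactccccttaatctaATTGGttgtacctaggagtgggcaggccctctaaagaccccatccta
The window of Ehhadh holds 1 CCAAT box and 2 GC boxes. That of Acaa1b holds 4 CCAAT boxes, of which a pair overlaps on opposite strands, and 0 GC boxes, whereas that of Acaa1a holds 4 CCAAT boxes and 3 GC boxes.

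Of the 40 genes, 35 matched a window in the RefSeq table, with 42 windows in all. GC boxes were in 28 of these 42 windows, against 35.7% of all 32851 windows, and CCAAT boxes in 18, against 37.4%. TATA boxes (TATAAA) were in 3 of the 42, against 13.6% of all windows. The hexamer AGGTCA, the core of nuclear receptor sites, was in 5, against 16.3%, and the direct repeat with a spacer of 1 base that PPAR-alpha binds, searched as AGGNCANAGGNCA on both strands, was in 0, against 0.381%. Some genes have more than 1 window, which may overlap. Every such match is a match of letters within these 300 bases. At a share of 0.381%, 42 windows are too few for a count of 0 to be informative. Pex2, Pxmp2, Abcd2, Hsd17b4 and Pex19 had no entry.

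The auxiliary enzymes of beta-oxidation deal with double bonds already present in the fatty acid. Ech1, a dienoyl-CoA isomerase, had 400, 452 and 305 CPM in KO and 513, 525 and 518 CPM in WT. The groups did not overlap, and the log2 fold change was -0.43 (SE 0.15, edgeR unadjusted p = 0.0215), or -0.28 (SE 0.11) without KO replicate 4, the lowest library. Decr2, the peroxisomal dienoyl-CoA reductase, had 274, 300 and 289 CPM in KO and 356, 329 and 433 CPM in WT. Its groups did not overlap either, with a log2 fold change of -0.37 (SE 0.13, edgeR unadjusted p = 0.021) and the same value, -0.37, without KO replicate 4. Eci2, an enoyl-CoA isomerase, had 300 to 406 CPM in KO and 332 to 437 CPM in WT, with overlap and log2 fold changes of -0.21 with and -0.11 without KO replicate 4. Acox3, an oxidase that acts on branched acyl-CoA, was at 21.4 to 28.7 CPM in KO and 20.3 to 28.6 CPM in WT, with log2 fold changes of 0.04 with and -0.07 without KO replicate 4.

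Scp2, whose long form is a thiolase for branched chains and whose short form carries sterols, went the other way in 1 library. It had 1091, 1092 and 2518 CPM in KO and 1216, 1183 and 1357 CPM in WT. KO replicates 1 and 2 lay below WT and KO replicate 4 was 2.31 times their mean. The log2 fold change was 0.32 (SE 0.31) with all libraries and -0.19 (SE 0.11) without KO replicate 4, and all 9 of 9 enzymes of beta-oxidation then had a lower estimate, with a median of -0.30. Because Scp2 carries many counts, the summed CPM of the 9 genes was 3822, 4101 and 5212 in KO, against 6590, 5901 and 6107 in WT. Without Ehhadh the median log2 fold change of the other 8 was -0.32. Of the 75-base stretches of Scp2, 25.6% occur in another gene, most of them in the pseudogene Scp2-ps2.

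**Figure D2:**
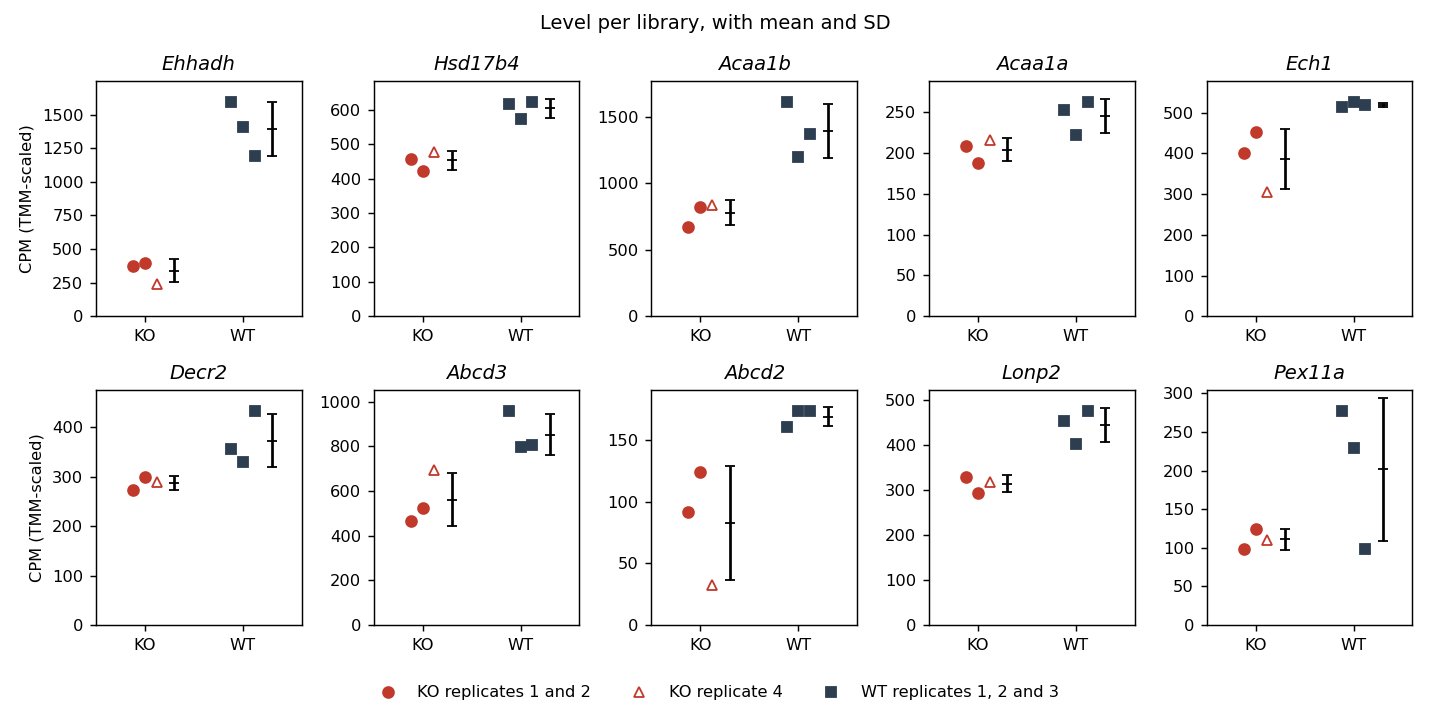
CPM (vertical axes, from 0) of 10 genes in each library, KO left and WT right, with the mean and SD of each group beside the points (n = 3 each) and KO replicate 4 as an open triangle. Ehhadh lies at 240 to 396 CPM in KO and at 1189 to 1591 CPM in WT, and for Pex11a WT replicate 3, at 98.5 CPM, lies among the KO libraries.

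Fatty acids enter the peroxisome through ABC transporters of the D family. Abcd3, also called PMP70, which carries long-chain and branched acyl-CoA and bile acid precursors, had 465, 525 and 696 CPM in KO and 958, 797 and 805 CPM in WT. The groups did not overlap, and KO replicate 4 was the highest of the 3 KO libraries. Its log2 fold change was -0.60 (SE 0.17), with an adjusted p of 0.42 in edgeR and 0.0542 in DESeq2. Without KO replicate 4 it was -0.78 (SE 0.13, edgeR adjusted p = 0.0394).

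Abcd2, a carrier of very long and polyunsaturated acyl-CoA, had 91.7, 124 and 32.7 CPM in KO and 161, 173 and 174 CPM in WT. KO replicate 4 was 0.302 times the mean of the other KO libraries, and those also lay below WT. The log2 fold change was -1.03 (SE 0.39, edgeR adjusted p = 0.639) with all libraries and -0.64 (SE 0.15) without KO replicate 4, where the adjusted p was 0.101 in edgeR and 0.00274 in DESeq2. Slc25a17, the carrier that brings CoA and other cofactors into the organelle, was the 1 gene of the 39 whose KO range lay above WT. It had 40.3, 42.0 and 54.1 CPM in KO and 37.9, 37.3 and 36.3 CPM in WT, with a log2 fold change of 0.29 (SE 0.13, edgeR unadjusted p = 0.0572). KO replicate 4 was the highest, and without it the value was 0.15 (SE 0.11, unadjusted p = 0.178).

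Of the remaining membrane proteins, Pxmp2, a channel protein of the membrane, had 104 to 142 CPM in KO and 91.9 to 125 CPM in WT, Pxmp4 92.9 to 122 CPM in KO and 89.6 to 133 CPM in WT, and Tmem135 85.1 to 103 CPM in KO and 97.4 to 109 CPM in WT. All 3 overlapped between the groups. Without KO replicate 4, Pxmp2 lay above WT (log2 fold change 0.43, SE 0.14, edgeR unadjusted p = 0.0136, against 0.29 with all libraries) and Tmem135 below (-0.24, SE 0.11, against -0.15), while Pxmp4 still overlapped (-0.04, against -0.14). Across the 6 genes of this class, 4 had a lower estimate in KO and the median log2 fold change was -0.14, also without KO replicate 4.

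The other peroxisomal enzymes were divided. Of the 11 tested, 6 had a lower and 5 a higher estimate in KO, with a median log2 fold change of -0.00, or -0.07 without KO replicate 4. Lonp2, the protease that clears matrix enzymes, was the 1 gene of the class that DESeq2 called with all libraries. It had 330, 293 and 319 CPM in KO and 454, 402 and 476 CPM in WT. The groups did not overlap, and the log2 fold change was -0.50 (SE 0.12), with an adjusted p of 0.271 in edgeR and 0.0278 in DESeq2. KO replicate 4 lay between the other KO libraries, and without it the value was -0.51 (SE 0.12), with an adjusted p of 0.113 in edgeR and 0.0070 in DESeq2.

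Enzymes of alpha-oxidation, which removes a single carbon from branched acids such as phytanic acid, had estimates of opposite sign. A difference between them was not tested. Hacl1, the lyase of this pathway, had 470, 495 and 299 CPM in KO and 587, 552 and 566 CPM in WT. The groups did not overlap, with a log2 fold change of -0.43 (SE 0.19, edgeR unadjusted p = 0.0465), or -0.23 (SE 0.10) without KO replicate 4, the lowest library. Of the 75-base stretches of Hacl1, 26.3% occur in other genes, most of them in Gm49387. That gene overlaps Hacl1 on the same strand but has no row in the deposited count table. Phyh, the hydroxylase of the first step, had 1367, 1189 and 2066 CPM in KO and 1078, 1162 and 1358 CPM in WT, with overlap, and log2 fold changes of 0.36 (SE 0.21) with and 0.10 (SE 0.13) without KO replicate 4.

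Among the oxidases and related enzymes, Cat, the catalase that breaks down hydrogen peroxide, had the highest level per length of all 40 genes, with a mean of 853 RPKM in KO and 834 RPKM in WT. It had 2031, 1803 and 2851 CPM in KO and 2025, 2161 and 2352 CPM in WT, with overlap, and its estimate was 0.03 (SE 0.17) with and -0.18 (SE 0.11) without KO replicate 4. Hao1, the glycolate oxidase of the liver, had 126, 151 and 292 CPM in KO and 172, 227 and 211 CPM in WT. KO replicates 1 and 2 were below WT and KO replicate 4 was above, so the log2 fold change was -0.10 (SE 0.29) with all libraries and -0.55 (SE 0.15) without KO replicate 4, where the adjusted p was 0.171 in edgeR and 0.0236 in DESeq2. Agxt, the aminotransferase that turns the product of Hao1 into glycine, had 472, 468 and 292 CPM in KO and 342, 345 and 430 CPM in WT, the opposite arrangement of KO replicate 4, with log2 fold changes of 0.14 (SE 0.20) with and 0.34 (SE 0.13) without it.

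Pecr, a trans-enoyl-CoA reductase, was at 147 to 227 CPM in KO and 131 to 187 CPM in WT, with a log2 fold change of 0.31 (SE 0.19). Without KO replicate 4 it lay above WT, with 0.47 (SE 0.16, edgeR unadjusted p = 0.0173). Mlycd, malonyl-CoA decarboxylase, was at 145 to 160 CPM in KO and 146 to 193 CPM in WT, with log2 fold changes of -0.17 with and -0.15 without KO replicate 4. Of the enzymes that start ether lipid synthesis, Gnpat was at 50.9 to 52.3 CPM in KO and 48.8 to 54.7 CPM in WT, Agps at 14.6 to 18.6 CPM in KO and 16.3 to 19.5 CPM in WT, and Far1 at 2.88 to 3.48 CPM in KO and 2.86 to 3.37 CPM in WT. Their log2 fold changes were -0.00, -0.14 and 0.04 with all libraries and 0.01, -0.07 and 0.12 without KO replicate 4.

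Of the 13 Pex biogenesis genes, 10 had a lower estimate in KO with a median log2 fold change of -0.08, and without KO replicate 4 there were 6 lower and 7 higher with a median of 0.01. The largest difference was in Pex11a, which drives elongation and division of peroxisomes. It had 97.9, 125 and 110 CPM in KO and 277, 230 and 98.5 CPM in WT. WT replicate 3 lay within the KO range, so the groups overlapped, and the log2 fold change was -0.86 (SE 0.32, edgeR unadjusted p = 0.0276, adjusted p = 0.63), or -0.85 (SE 0.36) without KO replicate 4. The value rested more on single WT libraries, with -0.56 without WT replicate 1 and -1.19 without WT replicate 3. Its relative Pex11g had 32.5 to 38.7 CPM in KO and 35.2 to 42.1 CPM in WT, with log2 fold changes of -0.06 with and 0.01 without KO replicate 4, but 38.2% of its 75-base stretches are shared with Gm44775 on the other strand.

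Pex5, the receptor for the common targeting signal of matrix enzymes, had 152 to 184 CPM in KO and 153 to 191 CPM in WT, and Pex7, the receptor for the other signal, 71.5 to 89.1 CPM in KO and 78.2 to 86.0 CPM in WT. Of the docking factors, Pex13 had 58.9 to 68.9 CPM in KO and 64.1 to 78.5 CPM in WT, and Pex14 63.9 to 73.2 CPM in KO and 72.6 to 87.8 CPM in WT, with 23.5% of the stretches of Pex14 shared with Gm17029. The ubiquitin ligases that recycle the receptor also overlapped with WT: Pex2 had 43.3 to 57.2 CPM in KO and 46.7 to 51.5 CPM in WT, and Pex10 3.50 to 7.22 CPM in KO and 5.40 to 6.07 CPM in WT. All of these ranges overlapped with all 6 libraries. Pex2 and Pex7 lay above WT without KO replicate 4, with log2 fold changes of 0.20 (SE 0.10) and 0.12 (SE 0.10), against 0.08 and 0.02 with it. Pex10 was at 0.16 without and -0.08 with that library, and Pex5, Pex13 and Pex14 at -0.09, -0.17 and -0.18 without it.

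Pex6, an ATPase that pulls the receptor back to the cytosol, had 121 to 144 CPM in KO and 140 to 153 CPM in WT, and its membrane anchor Pex26 31.0 to 40.1 CPM in KO and 29.3 to 33.3 CPM in WT. Pex6 lay below WT without KO replicate 4 (log2 fold change -0.24, SE 0.11, against -0.17 with it) and Pex26 was at 0.13. Of the factors that insert membrane proteins, Pex19 had 162, 165 and 138 CPM in KO and 184, 171 and 170 CPM in WT, the 1 Pex gene whose groups did not overlap, with a log2 fold change of -0.18 (SE 0.12), or -0.09 (SE 0.10) without KO replicate 4. That 1 of 13 is near the share of all genes with KO below WT given above. Pex3 had 25.8 to 33.4 CPM in KO and 30.3 to 33.6 CPM in WT, and Pex16 74.8 to 120 CPM in KO and 98.1 to 118 CPM in WT, and both turned from below to above 0 without KO replicate 4, at 0.06 and 0.09.

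**Figure D3:**
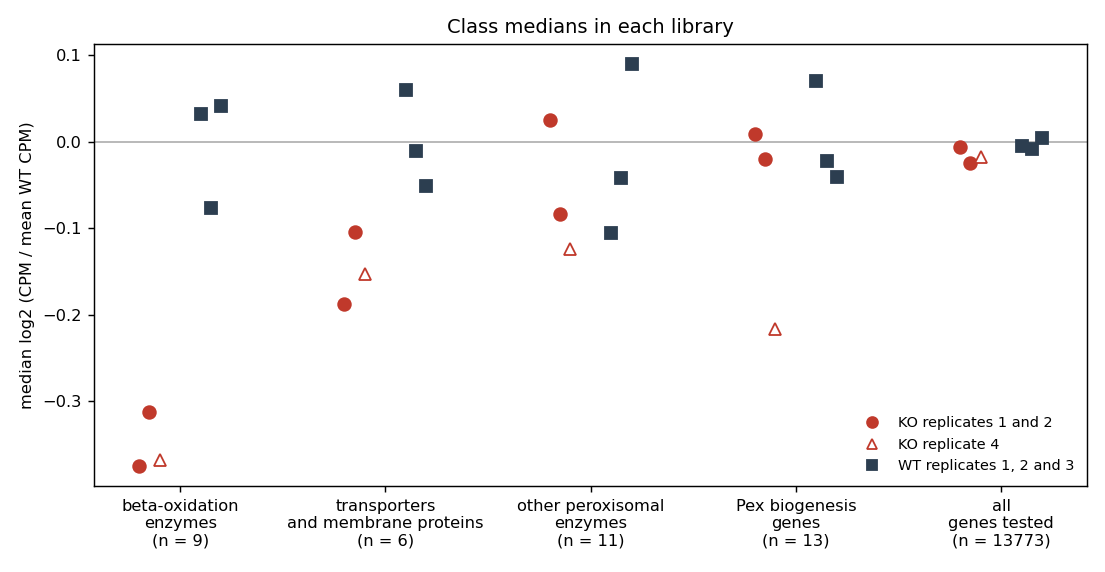
The median over the genes of each class of log2 CPM over the mean WT CPM (vertical axis), in each KO library (circles, triangle for KO replicate 4) and each WT library (squares). For the beta-oxidation enzymes the KO libraries lie at -0.37, -0.31 and -0.37 and the WT libraries at 0.03, -0.08 and 0.04, while all genes tested lie near 0.

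Within single libraries the class medians of the beta-oxidation enzymes and of the transporters and membrane proteins lay below WT in each KO library. The medians of the other enzymes and of the Pex genes did so in KO replicate 4 alone. The median of the 9 beta-oxidation enzymes relative to their WT means was -0.37, -0.31 and -0.37 in KO replicates 1, 2 and 4, against 0.03, -0.08 and 0.04 in WT. That of the transporters and membrane proteins was -0.19, -0.10 and -0.15 in KO, against 0.06, -0.01 and -0.05 in WT. The other enzymes lay at 0.03, -0.08 and -0.12 in KO, against -0.11, -0.04 and 0.09 in WT, where the groups overlapped. The Pex genes lay at 0.01, -0.02 and -0.22 in KO, against 0.07, -0.02 and -0.04 in WT, so that only KO replicate 4 was outside the WT range. The difference between classes was described and not tested.

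KO replicate 4 was the lowest of all 6 libraries for 8 of the 13 Pex genes and the highest for 1. It was the lowest for 3 and the highest for 2 of the 9 beta-oxidation enzymes, and the lowest for 3 and the highest for 3 of the 11 other enzymes. Over all genes tested it was the highest library for 21.7% and the lowest for 21.0%. The library is the one with Y-linked counts, and the part of sex in these positions cannot be told apart from that of the library.

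**Figure D4:**
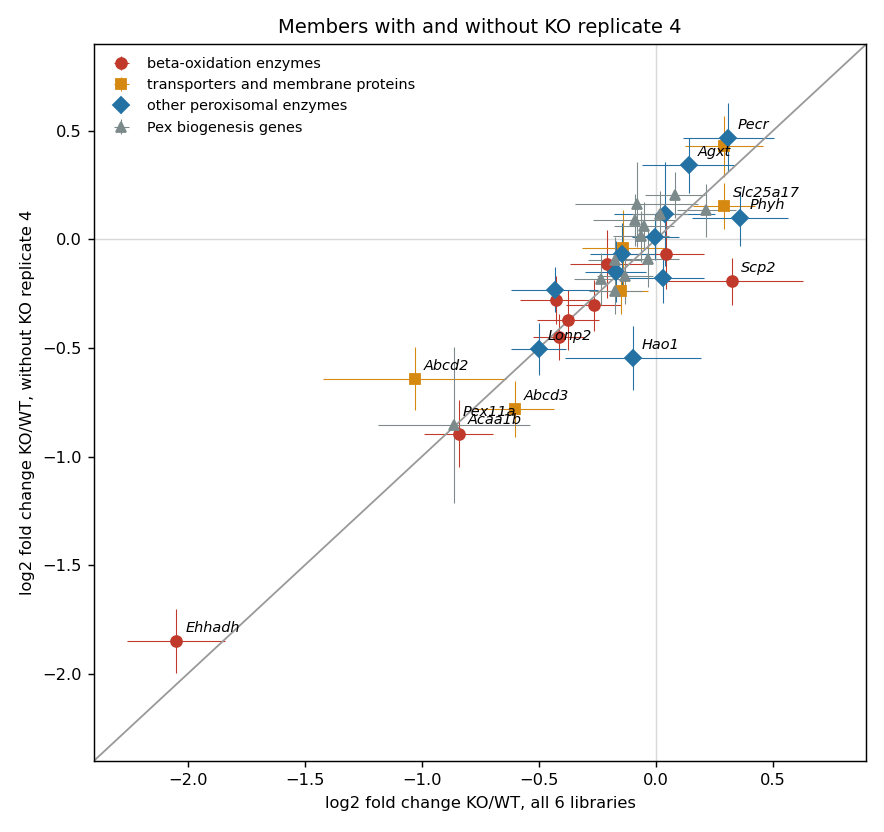
The log2 fold change KO/WT of the 39 genes from all 6 libraries (horizontal axis) and from the 5 libraries without KO replicate 4 (vertical axis), with bars of 1 SE and a symbol for each class. The diagonal marks equal values. Ehhadh lies at -2.05 and -1.85, Acaa1b at -0.84 and -0.89, and Scp2 at 0.32 and -0.19.

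Other genes of fatty acid oxidation and of PPAR-alpha were read beside the peroxisomal ones. Of 36 tested peroxisomal genes outside the 40, 18 had a lower estimate in KO, with a median log2 fold change of 0.02, and DESeq2 called 4 of 37 lower, against 0.536% of the genes it tested. The median was -0.19 and 21 of 37 were lower without KO replicate 4. Hsdl2, a dehydrogenase-like protein, had 124, 129 and 104 CPM in KO and 250, 268 and 198 CPM in WT, with an adjusted p of 0.129 in edgeR and 1.11e-06 in DESeq2, and a log2 fold change of -0.91 without KO replicate 4 (edgeR adjusted p = 0.0343). The thioesterase Acot4 had 62.9, 81.1 and 39.8 CPM in KO and 154, 139 and 111 CPM in WT, with a log2 fold change of -1.13 (SE 0.25, DESeq2 adjusted p = 0.000233). Both fell without overlap of the groups, as did Acad11, an acyl-CoA dehydrogenase, with a log2 fold change of -0.50 (SE 0.11, DESeq2 adjusted p = 0.0176). Acot8, a thioesterase, was at -0.61 (SE 0.14, DESeq2 adjusted p = 0.0601).

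Mitochondrial beta-oxidation had 16 of 17 estimates lower in KO and a median log2 fold change of -0.31, and DESeq2 called 5 lower, against 0.536% of all genes. Without KO replicate 4, 15 of 17 were lower with a median of -0.22. The trifunctional protein genes Hadha and Hadhb were at -0.54 (SE 0.11) and -0.66 (SE 0.11), the reductase Decr1 at -0.61 (SE 0.12) and the isomerase Eci1 at -0.54 (SE 0.13). The mitochondrial Decr1 had 225, 271 and 231 CPM in KO and 369, 362 and 383 CPM in WT, a larger estimate than the -0.37 of its peroxisomal counterpart Decr2. A difference between these estimates was not tested.

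Targets of PPAR-alpha outside the peroxisome had 20 of 22 estimates lower and a median log2 fold change of -0.77, and DESeq2 called 11 of 24 lower, against 0.536% of all genes. In the fit without KO replicate 4, 21 of 22 were lower with a median of -0.70. Among them Acot1, a cytosolic thioesterase, had 46.3, 69.3 and 30.5 CPM in KO and 288, 276 and 166 CPM in WT, with a log2 fold change of -2.32 (SE 0.32, DESeq2 adjusted p = 7.64e-15). Vnn1, a pantetheinase, was at -1.72 (SE 0.20), G0s2, an inhibitor of fat breakdown, at -1.25 (SE 0.22) and Acsl1, a fatty acid-activating enzyme, at -0.58 (SE 0.11). These lists were chosen with results of these data known. Of the receptors and coregulators themselves, 0 of 12 had an unadjusted edgeR p under 0.05 with all libraries. Over all genes, 3.48% were lower and 3.7% higher at that threshold. Without KO replicate 4, 2 of the 12 were lower (Ppara and Ncor1), against 6.5% of genes, and 1 was higher (Ppargc1a), against 5.64%. Ppara had 101, 95.6 and 149 CPM in KO and 160, 145 and 122 CPM in WT, with overlap, and log2 fold changes of -0.30 (SE 0.19) with all libraries and -0.53 (SE 0.14) without KO replicate 4, where the adjusted p was 0.153 in edgeR and 0.0226 in DESeq2. Ppargc1a, Med1 and Ncor1, which are coregulators, were at 0.36 (SE 0.18), 0.23 (SE 0.13) and -0.20 (SE 0.12) with all libraries, and at 0.51, 0.19 and -0.29 without KO replicate 4.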

How the data were processed

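Per the labels and the study's methods, the authors made directional libraries from poly(A) RNA, read 75 bases from 1 end, trimmed with Trimmomatic, aligned with STAR 2.5.0c to GRCm38.p5 (GENCODE M12) and counted with featureCounts. No source used here states the strand setting. The deposited table held raw counts of 49671 genes, of which 49412 took symbols from GENCODE M21.

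KO and WT counts were tested in edgeR 4.0.16 under R 4.3.3 (filterByExpr, TMM, glmQLFit, glmQLFTest), with Benjamini-Hochberg adjustment over 13773 genes. DESeq2 1.42.0, limma-voom (limma 3.58.1), other scalings and filters, a replicate block and each library left out were alternatives. The SE of an edgeR log2 fold change was derived as its absolute value divided by the square root of the test's F statistic. CPM used TMM-scaled library sizes, RPKM the merged exon length. Scripts were tested on simulated data. All library pairs differed beyond sampling noise. The members and lists were chosen with earlier results of these data known. Members with an unadjusted edgeR p under 0.05, or called by DESeq2 or without KO replicate 4, got values of every library, as did others chosen after their values were seen. Up to 4 genes with the smallest p were named from each of 4 other lists.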

Additional observations from a re-analysis of the deposited data

How the results depend on the processing

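The sign of the log2 fold change of the 39 genes was that of the 6-library edgeR fit in 605 of 663 pairs of gene and alternative. It never changed for 27 genes, and among the 12 for which it did the largest estimate with all libraries was 0.32 (Scp2). The number of calls depended on the setting. Over all genes there were 0 with all libraries, 158 with DESeq2, 5 with limma-voom, 136 with no filter on low counts, 9 with robust dispersions and 402 with DESeq2 without KO replicate 4. The peroxisomal genes called were 0, 3, 1, 2, 1 and 7 in the same order. Leaving out 1 library at a time gave 0 to 114 calls over all genes and 0 to 3 among the peroxisomal genes, with all of them in the fit without KO replicate 4. Without that library, 21 peroxisomal genes had ranges that did not overlap, against 12 with it; over all genes the shares were then 15.6% with KO below and 14.5% with KO above, against 6.36% and 6.02% with all libraries.

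Replicate numbers 1 and 2 occur in both groups, and the labels do not say whether they pair the samples. Deviations from the group means correlated at -0.12 and 0.03 between same-numbered libraries. The KO mean includes KO replicate 4, which stood apart, so these values cannot decide whether the samples were paired. With the replicate block, 468 genes and 8 peroxisomal genes were called, among them Pecr and Pxmp2, which were higher in KO. Only numbers 1 and 2 are in both groups, so this fit takes the genotype difference from those 4 libraries alone. Fits chosen after seeing the data on these 4 libraries gave 288 and 6 calls without, and 332 and 7 with the block (pairs 1 and 2 alone).

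The median log2 fold change of the beta-oxidation enzymes was -0.26 with the replicate block, -0.26 on the 4 libraries, -0.26 (-0.255) with the block on these, and -0.30 with DESeq2 without KO replicate 4. That of the transporters was -0.24 in each of the first 3 fits and that of the other enzymes -0.13, -0.12 and -0.13. That of peroxisomal genes outside the 40 was -0.25 with the replicate block and -0.26 on the 4 libraries. It was -0.25 with the block on these and -0.19 with DESeq2 without KO replicate 4. The median of the receptors was 0.0514 in the last of these fits. Leaving out 1 library gave -0.42 to -0.30 for beta-oxidation enzymes, -0.24 to -0.0715 for transporters and membrane proteins, -0.19 to 0.0489 for peroxisomal genes outside the members and -0.00926 to 0.0786 for nuclear receptors and coregulators of peroxisome genes.

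Single genes whose sign changed had these log2 fold changes. Leaving out 1 library gave -0.0671 to 0.18 for Acox3, -0.19 to 0.53 for Scp2, -0.18 to 0.16 for Cat, -0.55 to 0.13 for Hao1, -0.0386 to 0.0474 for Gnpat, -0.0182 to 0.12 for Far1, -0.11 to 0.0632 for Pex3, -0.12 to 0.0447 for Pex5, -0.0301 to 0.12 for Pex7, -0.31 to 0.16 for Pex10, -0.11 to 0.0219 for Pex11g and -0.23 to 0.0902 for Pex16. DESeq2 without KO replicate 4 gave -0.0670 for Acox3, -0.19 for Scp2, -0.18 for Cat, 0.0121 for Gnpat, 0.0631 for Pex3, 0.16 for Pex10, 0.0140 for Pex11g and 0.0901 for Pex16. The replicate block gave -0.14 for Scp2, -0.13 for Cat, 0.0533 for Gnpat, 0.0266 for Pex3, 0.0975 for Pex10, 0.0907 for Pex11g and 0.0785 for Pex16. The fit on those 4 libraries gave -0.13 for Scp2, -0.12 for Cat, 0.0556 for Gnpat, 0.0283 for Pex3, 0.11 for Pex10, 0.0934 for Pex11g and 0.0772 for Pex16. The block on pairs 1 and 2 alone gave -0.13 for Scp2, -0.13 for Cat, 0.0558 for Gnpat, 0.0292 for Pex3, 0.10 for Pex10, 0.0933 for Pex11g and 0.0811 for Pex16. DESeq2 gave 0.00425 for Gnpat. The limma-voom fit gave 0.000912 for Gnpat. DESeq2 size factors in edgeR gave 0.00585 for Gnpat. The fit with no filter on low counts gave 0.000186 for Gnpat. A minimum of 10 counts in every library gave 0.00336 for Gnpat. Library totals without TMM gave -0.00877 for Pex7. The cause of these changes was not tested. The number of libraries limits what can be told apart.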
